A study of Mus musculus with 6 samples.

Results

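The genes described here encode nucleoporins, the proteins that build the nuclear pore, and the receptors that carry cargo through it. They were taken by gene symbol, as every gene whose symbol begins with Nup, Kpna, Kpnb or Ipo followed by a digit, or with Xpo. Of 22800 symbols in the expression tables, 40 matched, 20 of them nucleoporins and 20 transport receptors. The RNA came from murine oviductal epithelial (MOE) cells, a single line established from oviducts pooled from 8-week-old female outbred CD1 mice. MOE HIGH cells, at passages 90, 103 and 113, were obtained by serial passage of MOE LOW cells, which were sampled at passages 8, 9 and 10, and no gene was introduced or deleted in either group. Each group therefore held 3 rRNA-depleted libraries, 1 per passage, and the comparison asked how the transcriptome of the long-passaged cells differed from that of the early cells. All libraries descend from 1 line, so the p-values below measure the spread between passages of that line and not between mice, and time in culture cannot be told apart from anything else that changed along the way.

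The nuclear pore is a ring-shaped channel through the nuclear envelope. Its scaffold is built from the Y complex, which coats the pore membrane on both faces, and from the inner ring, while nucleoporins rich in phenylalanine and glycine fill the channel and extend as filaments into the cytoplasm and as a basket into the nucleus. Importins bind cargo in the cytoplasm and release it in the nucleus when the small GTPase Ran, in its GTP form, binds them, and exportins bind cargo together with Ran-GTP and release it in the cytoplasm. In most import through the classical signal, an importin alpha (Kpna genes) holds the cargo and importin beta 1 (Kpnb1) carries the pair through the channel. Pores are assembled both when the envelope re-forms after mitosis and during interphase, as the nucleus grows.

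Values are FPKM as deposited, which are fragments scaled by transcript length and by library size, and values per library are given in the order of passages 90, 103 and 113 for MOE HIGH and of passages 8, 9 and 10 for MOE LOW. The test was limma on the log2 of FPKM + 1, fitted to the 11621 genes that averaged 0.5 FPKM or more. A log2 fold change is MOE HIGH over MOE LOW on that scale, and a gene was called at a Benjamini-Hochberg adjusted p of 0.05 or less over all genes tested. Log2 values of different libraries correlated at 0.972 to 0.987 within MOE HIGH, at 0.981 to 0.985 within MOE LOW and at 0.835 to 0.873 between the groups. Of 6 tested secretory markers, Krt18 and Krt7 were higher by 1.31 and 0.97 on the log2 scale and 0 were lower. Krt19 (-0.36), Krt8 (-0.29), Pax8 (-0.12) and Ovgp1 (0.01) were not called, and the median was -0.06. Krt18 averaged 2029 FPKM in MOE HIGH and 798.1 FPKM in MOE LOW, and Krt19 663.2 FPKM in MOE HIGH and 850.2 FPKM in MOE LOW. The 8 markers summed to 2094 to 3259 FPKM in MOE HIGH and 1500 to 1878 FPKM in MOE LOW. Among them Pax8 was present at 45.1 ± 3.94 FPKM in MOE HIGH and 49.2 ± 5.04 FPKM in MOE LOW (SD, n = 3 each), but the epithelial adhesion genes Epcam and Cdh1 were at or near 0 in both groups, with at most 0.0404 FPKM in MOE HIGH and 0.0821 FPKM in MOE LOW. The sums of 5 ciliated markers overlapped, at 4.13 to 5.27 FPKM in MOE HIGH and 4.04 to 6.13 FPKM in MOE LOW, with Foxj1 higher (1.39) and Rsph1 lower (-1.80). Smooth muscle markers moved with the groups, since all 5 tested of 6 were lower in MOE HIGH and their summed level was 9.69 to 18.6 FPKM in MOE HIGH, against 8221 to 11940 FPKM in MOE LOW. The summed level of 6 fibroblast markers was 18.5 to 27.3 FPKM in MOE HIGH and 569.9 to 913.1 FPKM in MOE LOW. Endothelial markers summed to at most 0.00998 FPKM in MOE HIGH and 1.88 to 3.68 FPKM in MOE LOW. Nearly all of that MOE LOW level was Kdr, at 3.64, 2.63 and 1.87 FPKM. Pecam1, Cdh5 and Tek were at or near 0 in both groups. The 4 mesothelial markers summed to 242.2 to 327.8 FPKM in MOE HIGH and 69.1 to 80.5 FPKM in MOE LOW. Of them, Upk3b and Msln were higher (4.64 and 3.002 on the log2 scale) and Wt1 was lower (-0.74), with Lrrn4 near 0 in both groups. The sums of 6 leukocyte markers overlapped, at 79.1 to 111.2 FPKM in MOE HIGH and 64.5 to 101.4 FPKM in MOE LOW, but of 5 tested 3 were higher (Itgb2 by 5.002, Mrc1 by 3.47 and Csf1r by 0.65 on the log2 scale) and Cd14 was lower (-1.25), with Ptprc near 0 in both groups. Fewer cells of a type and less RNA per cell cannot be told apart in such bulk RNA, and the part of these markers in the differences below was not tested.

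Of the 37 genes that could be tested, 18 were higher in MOE HIGH and 2 were lower, but nucleoporins and receptors differed in how they divided. Among nucleoporins, 14 of 18 tested were higher and 0 were lower, while 24.3% of all genes tested were called higher and 32.1% lower. Their log2 fold changes ran from 0.16 to 2.63 with a median of 0.74, beside a median of -0.05 over all genes tested. All 18 were above 0 under each alternative processing that tested them. In 17 of the 18, every MOE HIGH library lay above every MOE LOW library, as it did for 28.5% of all genes tested. Of 12 pore proteins outside the symbol rule, described below, 5 were higher and 2 lower. Among receptors, 4 of 19 tested were higher and 2 were lower, with a median log2 fold change of 0.11. Their groups did not overlap in 7 receptors in the higher direction and in 2 in the lower direction, where the share over all genes was 35.5%. The share of receptors called higher (4 of 19) was near that of all genes. The share called lower was below it, but without passage 113 it was 7 of 19, near the 37.5% of all genes called lower in that fit. Quantile normalization moved the calls over all genes to 34.6% higher and 26.4% lower, with 15 nucleoporins and 4 receptors then called higher.

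**Figure D1:**
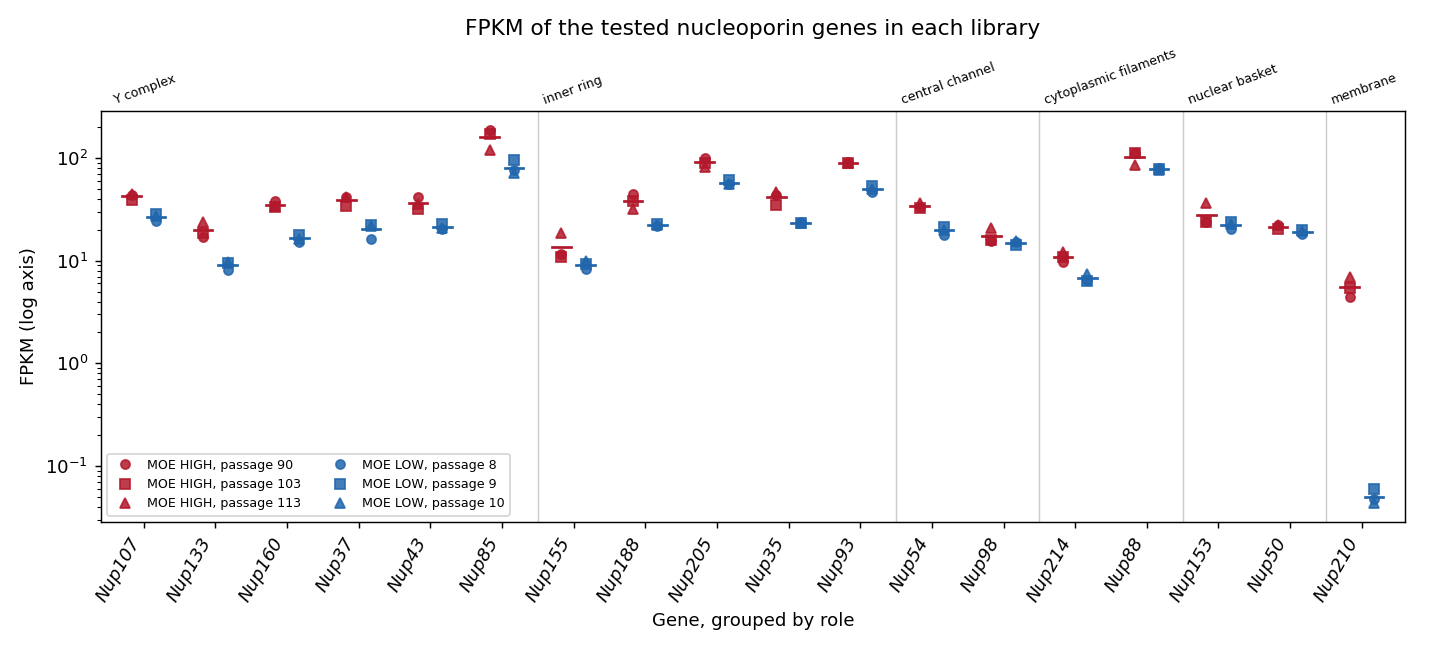
FPKM (log axis) of the 18 tested nucleoporin genes in each library, grouped by their place in the pore. Symbols are single libraries, red for MOE HIGH and blue for MOE LOW, and bars are group means. The 6 Nup genes grouped as Y complex, which leave out Nup98, lie above their MOE LOW level by log2 fold changes of 0.65 to 1.04. Nup210, at the right, is near 5 FPKM in MOE HIGH and near 0.05 FPKM in MOE LOW.

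Nup210, a glycoprotein that spans the pore membrane and whose level is known to differ between cell types, changed most of the tested genes taken by the symbol rule. It measured 4.48, 5.39 and 6.91 FPKM in MOE HIGH, against 0.0475, 0.0603 and 0.0436 FPKM in MOE LOW. Each MOE HIGH library was far above each MOE LOW library. The means were 5.59 ± 1.23 FPKM in MOE HIGH and 0.0505 ± 0.00873 FPKM in MOE LOW (SD, n = 3 each), a ratio of 110.8. Because 1 FPKM was added before the logarithm, the fitted log2 fold change was only 2.63 ± 0.15 (SE, limma adjusted p = 4.3e-06), and it was 6.52 with 0.01 FPKM added. Nup210 passed the filter of 0.5 FPKM only through its MOE HIGH values, so its call rests on that group being high. Its paralog Nup210l, known from testis, was below the level that could be tested, with 0.328, 0.295 and 0.265 FPKM in MOE HIGH and 0.353, 0.344 and 0.378 FPKM in MOE LOW. Nup210 thus held 94.8 ± 1.56% of the summed FPKM of the pair in MOE HIGH and 12.4 ± 2.32% in MOE LOW.

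The promoter of Nup210, and those of the importin alpha genes Kpna2 and Kpna4, whose levels moved in opposite directions, are shown here as the sequences next to the largest and the most contrasting changes. Each spans 250 bases before and 50 bases after the transcription start given by RefSeq for GRCm38.p6, the build the authors call mm10, and each gene lies on the minus strand. Nup210 occupies chr6:91013067-91118322, and its window, chr6:91116777-91117076, lies inside that span. Kpna2 occupies chr11:106988629-106999525 with its window at chr11:106999476-106999775, and Kpna4 occupies chr3:69072221-69127092 with its window at chr3:69127043-69127342. Capitals mark the GC box GGGCGG in Nup210, the CCAAT box and the CHR element TTTGAA in Kpna2, and the CCAAT box in Kpna4, each searched on both strands, so that a match on the other strand appears as the reverse complement of those letters. No marked match overlaps another.
Nup210: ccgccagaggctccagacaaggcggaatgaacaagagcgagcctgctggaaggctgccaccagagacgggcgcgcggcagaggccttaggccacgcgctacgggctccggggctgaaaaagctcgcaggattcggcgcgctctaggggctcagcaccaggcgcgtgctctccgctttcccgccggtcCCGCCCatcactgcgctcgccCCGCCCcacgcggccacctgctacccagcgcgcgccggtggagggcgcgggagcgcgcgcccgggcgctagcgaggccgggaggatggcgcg
Kpna2: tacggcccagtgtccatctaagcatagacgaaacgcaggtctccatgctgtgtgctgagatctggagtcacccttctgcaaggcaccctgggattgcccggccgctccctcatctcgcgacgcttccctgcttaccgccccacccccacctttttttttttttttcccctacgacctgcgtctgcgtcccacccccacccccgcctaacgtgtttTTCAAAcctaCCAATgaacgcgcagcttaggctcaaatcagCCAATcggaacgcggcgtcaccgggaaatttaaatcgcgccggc
Kpna4: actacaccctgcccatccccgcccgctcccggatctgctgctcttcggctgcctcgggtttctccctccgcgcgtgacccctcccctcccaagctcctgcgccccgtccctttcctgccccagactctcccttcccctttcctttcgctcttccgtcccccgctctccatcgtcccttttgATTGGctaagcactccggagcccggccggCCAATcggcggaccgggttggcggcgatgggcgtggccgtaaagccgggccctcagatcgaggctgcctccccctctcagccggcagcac
The Nup210 window held 2 GC boxes and no CCAAT box or CHR element, and 73.7% of its bases were G or C, beside a median of 52.7% over all promoters of that length. The Kpna2 window held 2 CCAAT boxes, 1 CHR element and 1 GC box at 57.7% GC, and the Kpna4 window held 2 CCAAT boxes and 1 GC box at 68.7% GC. Over 32851 promoters, 37.4% held a CCAAT box, 35.7% a GC box and 17.9% a CHR element. Of the 31 genes described here with a promoter in that table, 17 held a CCAAT box, 22 a GC box and 6 a CHR element in any of their promoters. Those counts are per gene and the percentages per promoter, so a gene with several promoters had more chances to match. These matches describe letters in a window and are not evidence of binding.

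The 6 Nup genes grouped here as Y complex were all higher in MOE HIGH. Nup98, whose transcript also encodes the Y complex subunit Nup96, was grouped with the central channel and was not called (log2 fold change 0.20, limma adjusted p = 0.24). Among subunits with other symbols, Sec13 was lower and Seh1l was not called. Nup160, which forms a short arm of the Y, measured 37.7, 33.4 and 33.9 FPKM in MOE HIGH and 15.3, 17.8 and 16.2 FPKM in MOE LOW. Its groups were separated by more than the range within either, and its log2 fold change was 1.04 ± 0.10 (SE, limma adjusted p = 9.4e-05). Nup133, in the stem of the Y, measured 17.0, 18.6 and 24.0 FPKM in MOE HIGH and 8.08, 9.54 and 9.65 FPKM in MOE LOW, with passage 113 the highest. The change of Nup133 was 1.04 ± 0.15 (adjusted p = 6.0e-04). Nup85, the highest of these 6 by FPKM, measured 188.6, 171.9 and 120 FPKM in MOE HIGH and 75.8, 94.9 and 70.8 FPKM in MOE LOW. Its groups did not overlap although passage 113 was well below the other MOE HIGH libraries, and it changed by 0.97 ± 0.19 on the log2 scale (adjusted p = 0.0032).

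The other Nup genes of this group of 6 had log2 fold changes of 0.65 to 0.93. Nup37, which sits on the Nup160 arm, measured 41.5, 33.9 and 41.9 FPKM in MOE HIGH and 16.4, 22.4 and 21.7 FPKM in MOE LOW, and Nup43, which sits on the Nup85 arm, measured 42.1, 32.0 and 35.2 FPKM in MOE HIGH and 20.5, 23.0 and 20.9 FPKM in MOE LOW. Both had their lowest MOE HIGH value at passage 103, above every MOE LOW value, with log2 fold changes of 0.93 for Nup37 (adjusted p = 0.0011) and 0.73 for Nup43 (adjusted p = 0.0015). Nup107, which joins Nup133 in the stem, measured 43.7, 39.2 and 44.7 FPKM in MOE HIGH and 24.5, 28.7 and 26.9 FPKM in MOE LOW, without overlap. Its log2 fold change of 0.65 (adjusted p = 0.0012) was the smallest of the 6. Summed, the 6 genes reached 333.1 ± 35.6 FPKM in MOE HIGH and 174.4 ± 19.2 FPKM in MOE LOW (SD, n = 3 each), a ratio of 1.91. Seh1l, a small subunit, stood at 31.4 ± 7.25 FPKM in MOE HIGH and 23.8 ± 1.06 FPKM in MOE LOW and did not pass the test (log2 fold change 0.36, limma adjusted p = 0.081). With Seh1l and the abundant Sec13, which is described with the other pore proteins, the 8 genes summed to 473.1 ± 47.9 FPKM in MOE HIGH and 374.1 ± 24.8 FPKM in MOE LOW, a ratio of 1.26.

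In the inner ring, 4 of 5 genes were higher in MOE HIGH. Nup93, the scaffold protein that links the inner ring subcomplexes, measured 90.7, 88.3 and 89.7 FPKM in MOE HIGH and 46.9, 52.8 and 49.98 FPKM in MOE LOW. Its MOE HIGH libraries were within 1.03-fold of each other, and its log2 fold change was 0.83 ± 0.09 (SE, limma adjusted p = 1.6e-04). Nup205, a large scaffold protein, measured 99.6, 89.3 and 82.1 FPKM in MOE HIGH and 55.9, 60.7 and 56.2 FPKM in MOE LOW. The related Nup188 measured 44.3, 38.3 and 32.1 FPKM in MOE HIGH and 21.6, 22.7 and 22.3 FPKM in MOE LOW. Nup205 was above Nup93 in all libraries but that of passage 113. Nup205 and Nup188 were lowest at passage 113 within MOE HIGH and still above all MOE LOW libraries, with log2 fold changes of 0.64 for Nup205 (adjusted p = 0.0014) and 0.75 for Nup188 (adjusted p = 0.0016). Nup35, which binds the pore membrane, measured 43.1, 34.7 and 47.1 FPKM in MOE HIGH and 23.7, 23.5 and 23.2 FPKM in MOE LOW, with a log2 fold change of 0.79 (adjusted p = 0.0011). The groups of Nup35 were apart, and the MOE LOW libraries were within 1.02-fold of each other. Nup155, which anchors the ring to the membrane, had 10.8 to 18.7 FPKM in MOE HIGH and 8.26 to 9.86 FPKM in MOE LOW and did not pass the test (log2 fold change 0.50, 95% interval 0.05 to 0.96, adjusted p = 0.059), while it did without passage 103 (log2 fold change 0.64, adjusted p = 0.037). The ring as a whole summed to 273.5 ± 14.4 FPKM in MOE HIGH and 162.3 ± 6.31 FPKM in MOE LOW.

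Of the nucleoporins that face the transport path, Nup54 and both genes of the cytoplasmic filaments were called higher, and Nup98 and both genes of the basket were not called. Nup54, a channel protein that forms a complex with Nup62 and Nup58, measured 33.5, 32.8 and 36.5 FPKM in MOE HIGH and 17.9, 21.3 and 20.01 FPKM in MOE LOW. All MOE HIGH values of Nup54 were above all MOE LOW values, with a log2 fold change of 0.77 ± 0.10 (SE, limma adjusted p = 5.0e-04). Its partner Nup58, listed as Nupl1, was not called (log2 fold change -0.03, adjusted p = 0.92). Nup62 was not among the symbols that matched. Nup98, which holds repeats that form the permeability barrier, overlapped between the groups at 15.4 to 20.9 FPKM in MOE HIGH and 14.1 to 15.5 FPKM in MOE LOW, and did not pass the test (log2 fold change 0.20, adjusted p = 0.24).

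On the cytoplasmic face, Nup214, which binds the exportin Xpo1, measured 9.63, 10.96 and 12.2 FPKM in MOE HIGH and 6.47, 6.34 and 7.37 FPKM in MOE LOW. Its partner Nup88 measured 111.3, 110.8 and 85.3 FPKM in MOE HIGH and 79.8, 77.7 and 76.3 FPKM in MOE LOW. Neither overlapped between groups, though Nup88 at passage 113 lay close to MOE LOW, and the log2 fold changes were 0.62 for Nup214 (limma adjusted p = 0.0032) and 0.38 for Nup88 (adjusted p = 0.032). The call of Nup88 was lost without any 1 of 5 libraries, the exception being passage 113, with adjusted p-values of 0.078 to 0.11.

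In the nuclear basket, Nup153, which anchors the basket to the ring, measured 23.8, 23.9 and 36.3 FPKM in MOE HIGH and 20.3, 23.6 and 22.7 FPKM in MOE LOW. Only passage 113 stood clearly above MOE LOW, and the log2 fold change of 0.30 (95% interval -0.10 to 0.69) did not pass the test (limma adjusted p = 0.17). Nup50, which helps release cargo from importins, had 20.1 to 22.3 FPKM in MOE HIGH and 18.4 to 19.7 FPKM in MOE LOW and did not pass it either (log2 fold change 0.16, interval -0.06 to 0.38, adjusted p = 0.20). Nup62cl, named for its likeness to the C terminus of Nup62, was not tested because its mean over all libraries was below 0.5 FPKM. Nup62cl was listed at 0 FPKM at passages 90 and 113 and at 0.0605 FPKM at passage 103 in MOE HIGH, against 1.22, 0.877 and 0.523 FPKM in MOE LOW.

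**Figure D2:**
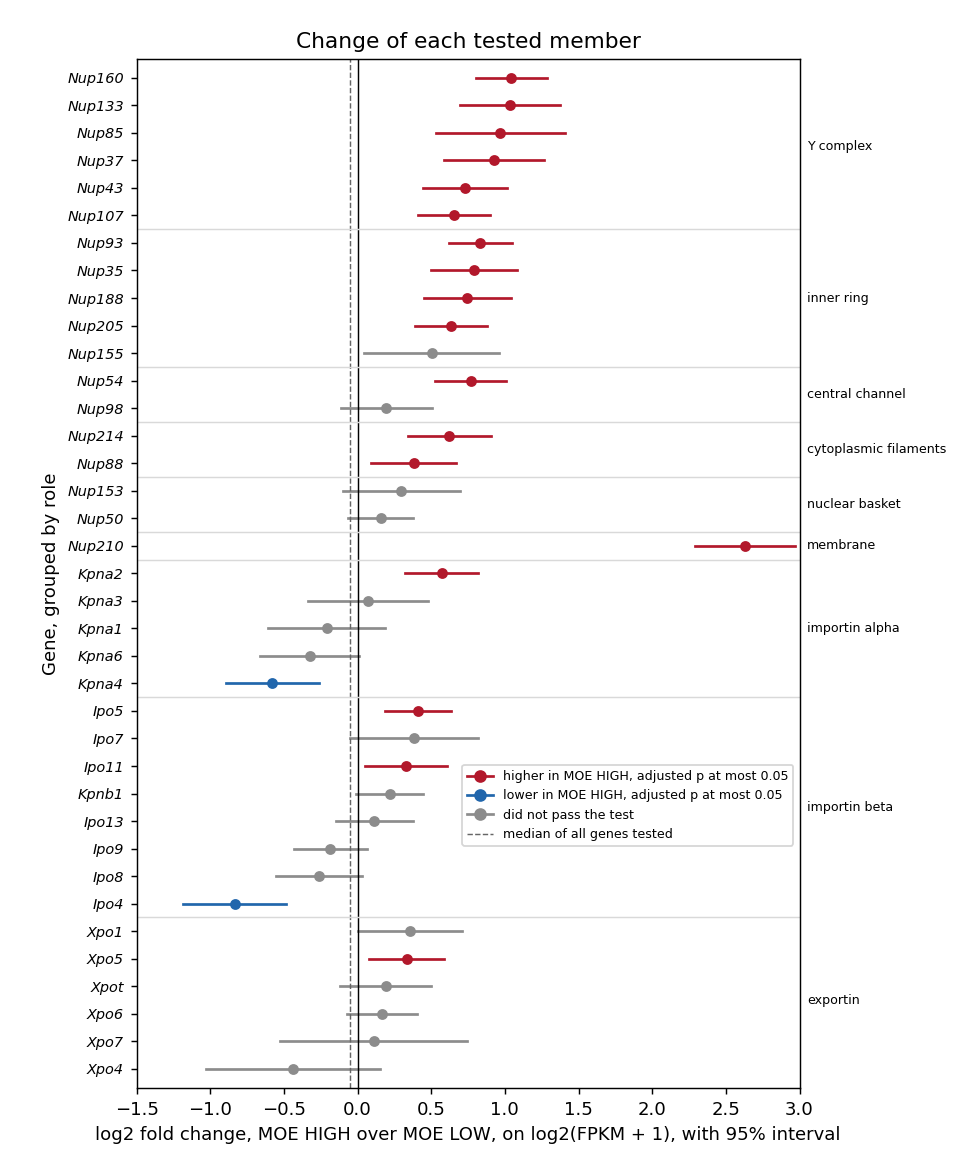
Log2 fold change of each tested gene, MOE HIGH over MOE LOW on log2(FPKM + 1), with its 95% interval from limma, grouped by role. Red points passed the test as higher, blue points as lower and grey points did not pass it, and the dashed line marks the median of all genes tested at -0.05. All 18 tested nucleoporins taken by the symbol rule lie right of 0, whereas the receptors lie on both sides, between -0.83 (Ipo4) and 0.57 (Kpna2).

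Whole chromosomes differed in their median log2 fold change, which is given here beside the genes they carry. Chromosome 2, which carries Nup160, Nup188, Nup214 and Nup35, had a median of 0.22 over its 926 tested genes, and chromosome 8, which carries Nup93 and Nup133, had a median of 0.29 over 646. Chromosome 14, which carries the receptors Ipo4, Ipo5, Kpna3, Xpo4 and Xpo7, had a median of -0.29 over 386. Centred on the median of their own chromosome, all 6 of those nucleoporins were still called, at 0.85 for Nup160, 0.75 for Nup133, 0.59 for Nup35, 0.55 for Nup188, 0.54 for Nup93 and 0.43 for Nup214. The receptors called lower kept their calls at smaller sizes. Ipo4 stood at -0.53 instead of -0.83 (limma adjusted p = 0.034) and Kpna4, on chromosome 3, at -0.35 instead of -0.58 (0.037). Ipo5 moved the other way, from 0.41 to 0.72. With that centring, 17 nucleoporins were called higher, now with Nup155 (limma adjusted p = 0.029), Nup153 (0.032) and Nup50 (0.035), and 6 receptors were called higher, now with Kpnb1 and Xpot (0.045 each), while 26.9% of all genes were called higher.

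The importin alpha genes, which bind the classical import signal, differed in direction from one another. Kpna2, the importin alpha known for high expression in dividing and embryonic stem cells, measured 265.8, 243.3 and 270.6 FPKM in MOE HIGH and 163.2, 189.9 and 171.2 FPKM in MOE LOW. Every MOE HIGH library was above every MOE LOW library, and the means of 259.9 ± 14.6 FPKM in MOE HIGH and 174.8 ± 13.7 FPKM in MOE LOW (SD, n = 3 each) gave a log2 fold change of 0.57 ± 0.11 (SE, limma adjusted p = 0.0025). Kpna4, an importin alpha known to carry NF-kappaB subunits, measured 38.0, 32.9 and 46.7 FPKM in MOE HIGH and 55.6, 60.5 and 59.0 FPKM in MOE LOW. Kpna4 was lower in each MOE HIGH library, with a log2 fold change of -0.58 ± 0.14 (adjusted p = 0.0078). Kpna6, Kpna1 and Kpna3 did not pass the test, with log2 fold changes of -0.33 for Kpna6 (adjusted p = 0.091), -0.21 for Kpna1 (0.33) and 0.07 for Kpna3 (0.75), and their groups overlapped. Kpna7, known from oocytes and early embryos, was listed at 0 FPKM in all 6 libraries.

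**Figure D3:**
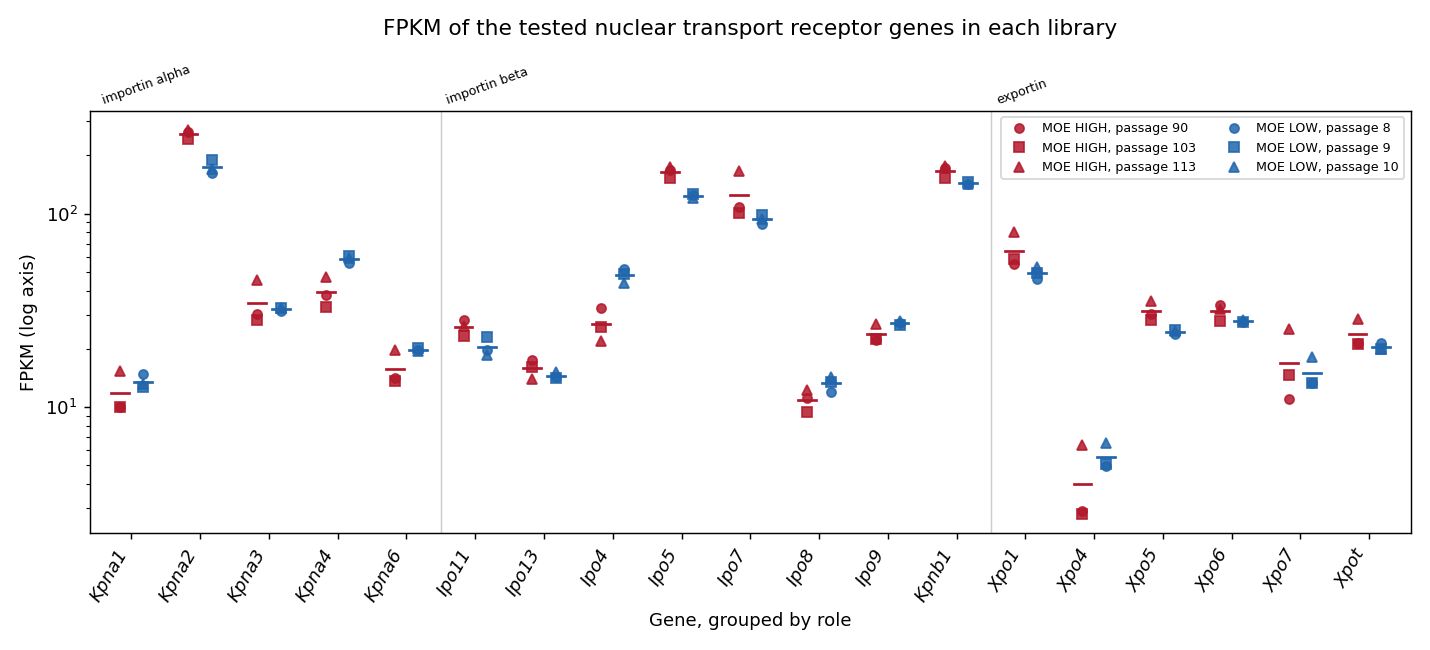
FPKM (log axis) of the 19 tested transport receptor genes in each library, grouped as importin alpha, importin beta and exportin genes. Symbols are single libraries, red for MOE HIGH and blue for MOE LOW, and bars are group means. Kpna2 stands highest in both groups, Ipo4 and Kpna4 are lower in MOE HIGH, and the red triangles of passage 113 lie above the other MOE HIGH libraries for Xpo4, Xpo7, Kpna3 and Ipo7.

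Because FPKM are scaled by length, the paralogs can be set against each other within a library. Kpna2 held 74.3%, 74.2% and 68.0% of the summed importin alpha FPKM in MOE HIGH and 57.3%, 60.2% and 57.9% in MOE LOW. The lowest share in MOE HIGH, at passage 113, was above the highest in MOE LOW. The mean share was 72.2 ± 3.60% in MOE HIGH and 58.5 ± 1.504% in MOE LOW (SD, n = 3 each), a difference of 13.7 percentage points with a two-sided exact permutation p of 0.1, the smallest that 3 against 3 libraries can give. Kpna4 held 10.8 ± 0.876% in MOE HIGH and 19.6 ± 0.404% in MOE LOW, Kpna6 4.34 ± 0.528% in MOE HIGH and 6.63 ± 0.296% in MOE LOW, and Kpna1 3.22 ± 0.557% in MOE HIGH and 4.54 ± 0.581% in MOE LOW. Kpna3 held 9.49 ± 1.71% in MOE HIGH and 10.8 ± 0.447% in MOE LOW, with overlapping libraries. The sum over the importin alpha genes was 361.2 ± 35.2 FPKM in MOE HIGH and 298.5 ± 15.6 FPKM in MOE LOW, a ratio of 1.21.

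**Figure D4:**
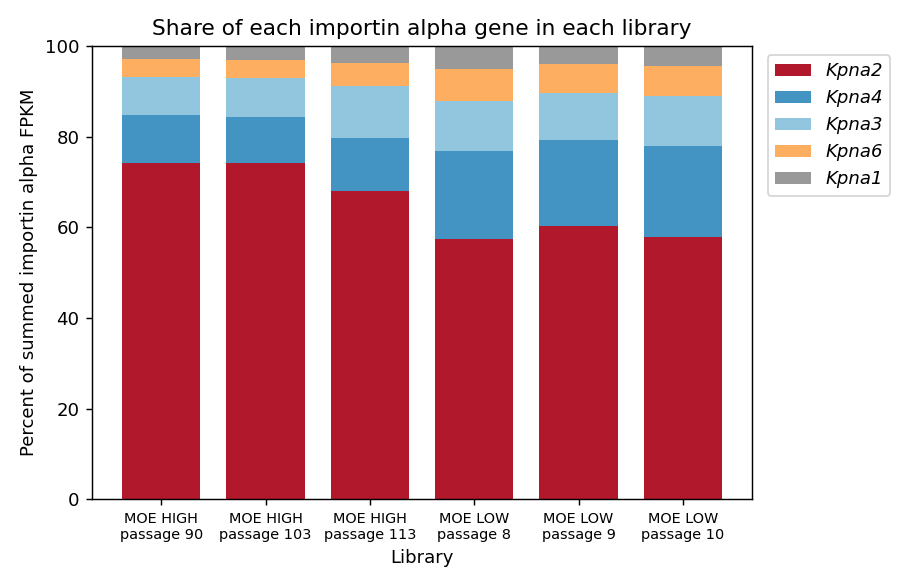
Percent of the summed importin alpha FPKM held by each gene in each library, with MOE HIGH passages on the left and MOE LOW passages on the right. Each bar is 1 library and adds to 100%. Kpna2 (red) holds 68.0% to 74.3% in MOE HIGH and 57.3% to 60.2% in MOE LOW, and the share of Kpna4 (dark blue) is smaller in each MOE HIGH library than in any MOE LOW library.

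The importin beta genes moved little, apart from Ipo4. Kpnb1, the most abundant of them and the carrier of the classical pathway, measured 171.4, 153.8 and 176 FPKM in MOE HIGH and 141.9, 145.5 and 142.5 FPKM in MOE LOW. Its libraries did not overlap, but the log2 fold change of 0.22 (95% interval -0.01 to 0.44) did not pass the test (limma adjusted p = 0.093). Ipo4, which imports histones and other basic proteins, measured 32.6, 26.0 and 22.0 FPKM in MOE HIGH and 52.0, 48.5 and 43.9 FPKM in MOE LOW. Ipo4 was lower in every MOE HIGH library, with a log2 fold change of -0.83 ± 0.15 (SE, adjusted p = 0.0022). In the GENCODE annotation it shares 428 exon bases on the same strand with Gm49378. Whether the gene models behind the FPKM held Gm49378 is not known, and the part of this overlap in the Ipo4 values was not tested. Ipo5, an importin of ribosomal proteins and histones, was higher at 165 ± 10.7 FPKM in MOE HIGH and 123.7 ± 3.33 FPKM in MOE LOW (log2 fold change 0.41, adjusted p = 0.0078), although its chromosome as a whole had a negative median.

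Ipo11, which imports ubiquitin-conjugating enzymes, was higher at 25.9 ± 2.44 FPKM in MOE HIGH and 20.5 ± 2.25 FPKM in MOE LOW (SD, n = 3 each; log2 fold change 0.33, limma adjusted p = 0.047). Its call was lost without any 1 of the libraries of passages 8, 10, 90 and 113, with adjusted p-values of 0.056 to 0.16. Ipo7, another importin of ribosomal proteins, had 101 to 166.9 FPKM in MOE HIGH and 88.2 to 98.9 FPKM in MOE LOW, without overlap, and did not pass the test (log2 fold change 0.38, adjusted p = 0.12). Ipo8, Ipo9 and Ipo13 did not pass it, with log2 fold changes of -0.26, -0.18 and 0.11 and overlapping groups. Summed over the 8 genes, the importin beta family stood at 560.7 ± 56.2 FPKM in MOE HIGH and 484 ± 10.9 FPKM in MOE LOW, a ratio of 1.16.

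Among exportins, Xpo5 was the only 1 of 6 that was called. Xpo5, which exports precursor microRNAs, stood at 31.3 ± 3.70 FPKM in MOE HIGH and 24.5 ± 0.615 FPKM in MOE LOW (SD, n = 3 each), with a log2 fold change of 0.33 (limma adjusted p = 0.032) that lost its call without any 1 of the libraries of passages 8, 9, 10 and 90 (0.051 to 0.10). Xpo1, the main exportin of proteins with leucine-rich export signals and the most abundant of the family, measured 54.7, 58.6 and 80.0 FPKM in MOE HIGH and 46.0, 49.5 and 52.9 FPKM in MOE LOW. Its groups did not overlap, but the change of 0.36 (95% interval 0.0035 to 0.71) did not pass the test after adjustment (adjusted p = 0.080), while it did without passage 90 (log2 fold change 0.46, adjusted p = 0.038). Xpo4, an exportin of a translation factor, measured 2.88, 2.79 and 6.31 FPKM in MOE HIGH and 4.92, 5.08 and 6.46 FPKM in MOE LOW. Passages 90 and 103 were below all MOE LOW libraries and passage 113 was within their range (log2 fold change -0.44, adjusted p = 0.18). Xpo7 measured 10.98, 14.6 and 25.2 FPKM in MOE HIGH and 13.3, 13.2 and 18.1 FPKM in MOE LOW, with overlap (log2 fold change 0.11, adjusted p = 0.75). The actin exportin Xpo6 and the tRNA exportin Xpot overlapped between the groups too, at log2 fold changes of 0.17 and 0.19.

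Passage 113 was the MOE HIGH library on which the receptor values depended most. It held the highest value of the 6 libraries for 21 of the 37 tested genes, passage 90 for 10 and passage 103 for 0. Over all genes tested, these libraries were highest for 21.5%, 20.2% and 10.9%. Passages 8, 9 and 10 of MOE LOW were highest for 1, 2 and 3 of the 37 genes, beside 23.8%, 8.2% and 15.45% of all genes. The difference between the groups therefore enters these counts too. The value at passage 113 exceeded the mean of passages 90 and 103 by at least 0.5 on the log2 scale for 7 of the 37 genes (18.9%), beside 9.29% of all genes tested. These were Xpo4 and Xpo7 (0.93 each), Nup155 (0.69), Ipo7 (0.67), Kpna3 (0.63), Nup153 (0.59) and Kpna1 (0.57), while Nup85 (-0.58), Ipo4 (-0.40) and Nup88 (-0.38) stood lowest. The median over receptors was 0.27 and over nucleoporins 0.12, beside 0.01 over all genes.

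**Figure D5:**
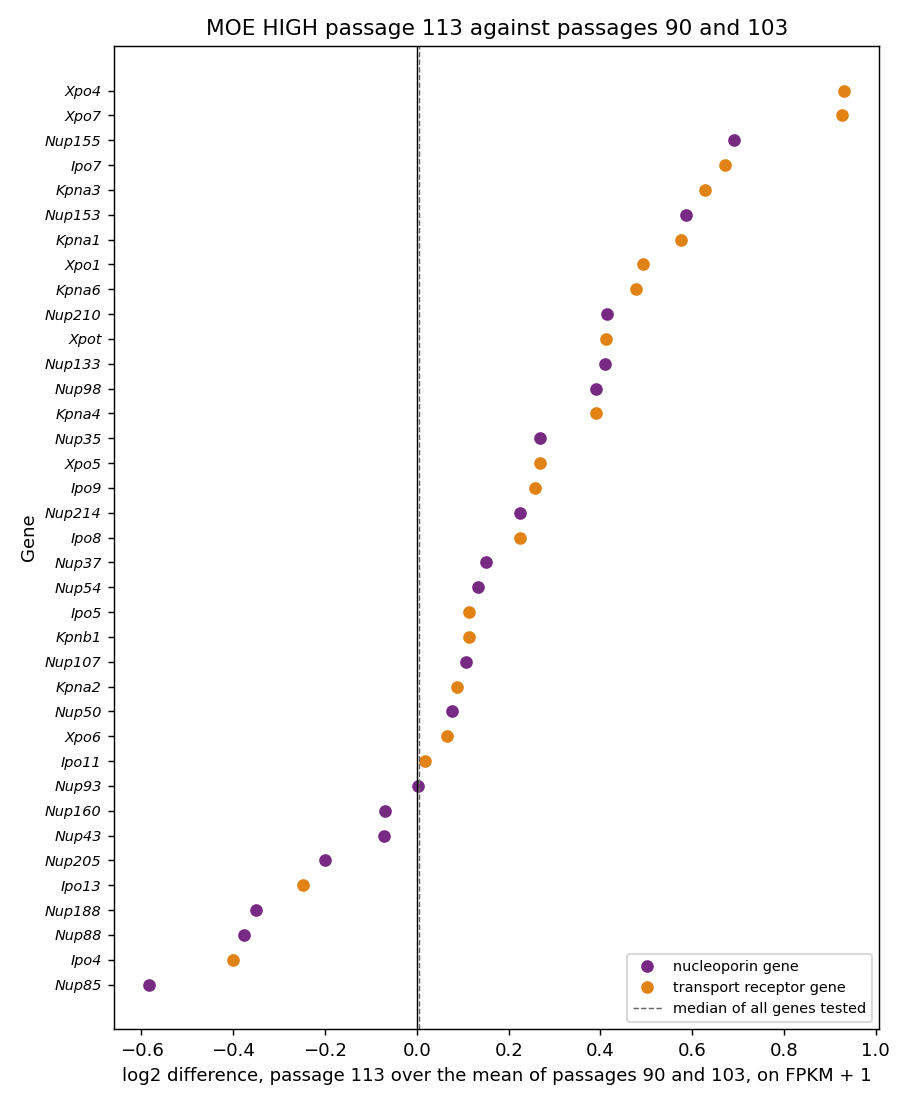
Difference between MOE HIGH passage 113 and the mean of passages 90 and 103, on log2(FPKM + 1), for each tested gene, with nucleoporins in purple and receptors in orange. The dashed line is the median of all genes tested. Points right of 0 were higher at passage 113, up to 0.93 for Xpo4 and Xpo7, and Nup85 stands farthest left at -0.58.

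Without passage 113, 7 of 19 receptors were called lower in MOE HIGH instead of 2, and 37.5% of all genes were called lower in the same fit. The 5 that were added were Kpna6 (log2 fold change -0.48, limma adjusted p = 0.0016), Kpna1 (-0.40, 0.0088), Xpo4 (-0.75, 0.0022), Ipo8 (-0.34, 0.033) and Ipo9 (-0.27, 0.017). Kpna3 and Xpo7 then stood at -0.14 and -0.20, below 0, and did not pass the test. The number of nucleoporins called higher was 14 without that library as well, and 13 or 14 without any other.

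Lists of genes that act with the pore were measured beside these. Of 12 other pore proteins, 5 were higher and 2 lower, with a median log2 fold change of 0.36. Gle1, the activator of the export helicase, and Rae1, an mRNA export factor, were each higher by 0.66 on the log2 scale (limma adjusted p = 0.0014 and 0.0018), and the membrane protein Pom121 by 0.65 (0.0023). The others called higher were Ahctf1, which seeds pore assembly on chromatin, and Aaas. Tmem48 (0.36), Tpr (0.05), Nupl1 (-0.03) and Ranbp2 (-0.19) were not called, nor was Seh1l. Sec13, which the Y complex shares with the coat of secretory vesicles, was lower at 108.7 ± 18.3 FPKM in MOE HIGH and 176 ± 21.6 FPKM in MOE LOW (SD, n = 3 each, log2 fold change -0.70, adjusted p = 0.0056). That was opposite to the 6 Nup genes grouped as Y complex, and Nupl2 was lower by the smaller amount of -0.39 (0.046). Of 8 further transport receptors, 2 were higher and 0 lower, with a median of 0.04. They were Cse1l, which returns importin alpha to the cytoplasm (77.1 ± 9.65 FPKM in MOE HIGH and 44.8 ± 2.44 FPKM in MOE LOW, 0.77, adjusted p = 8.5e-04), and Tnpo2, an importin of RNA-binding proteins (0.35, 0.020).

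In the Ran cycle, 4 of 7 genes were higher and 0 were lower. Rcc1, the exchange factor that makes Ran-GTP on chromatin, measured 74.3, 55.3 and 55.1 FPKM in MOE HIGH and 26.1, 26.8 and 23.9 FPKM in MOE LOW. Its groups were far apart (log2 fold change 1.22 ± 0.14, SE, limma adjusted p = 1.7e-04). Nutf2, which carries Ran back into the nucleus, was higher by 0.53 (adjusted p = 0.0043), Ranbp1, a cofactor of Ran-GTP hydrolysis, by 0.52 (0.036) and the GTPase activator Rangap1 by 0.35 (0.032). Ran itself stood at 307.8 ± 28.7 FPKM in MOE HIGH and 250 ± 15.3 FPKM in MOE LOW (SD, n = 3 each), without overlap, and did not pass the test (0.30, adjusted p = 0.058). Ranbp3 (0.29, 0.16) and Rangrf (-0.59, 0.11) did not pass it.

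Of 23 measured mRNA export genes, 12 were higher and 2 lower, with a median log2 fold change of 0.32. Ddx39, an export helicase, was higher by 1.38 (limma adjusted p = 3.9e-04), Nxf1, the main mRNA export receptor, by 1.10 (4.8e-05) and the adaptor Alyref by 0.89 (7.4e-04). Nxt2, a cofactor of Nxf1, was lower by -0.83 (0.0024) and Zc3h11a by -0.52 (0.0050). Of 16 measured genes of the lamina and inner nuclear membrane, 6 were higher and 5 lower, with a median of -0.15. The chromatin-bridging Banf1 was higher by 1.49 (1.2e-04), the lamin Lmnb2 by 0.88 (2.3e-04) and the lamin B receptor Lbr by 0.85 (0.013), whereas Sun2, which links the envelope to the cytoskeleton, was lower by -0.55 (0.0026), Tor1aip2 by -0.52 (0.015) and Lemd2 by -0.46 (0.026). Nxf1 and Banf1 lie on chromosome 19, where the median of all tested genes was 0.70.

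Markers of proliferation moved in the same direction as the nucleoporins. Of 20 such genes, 19 were higher in MOE HIGH and 0 were lower, with a median log2 fold change of 0.74. Mcm5, a subunit of the replicative helicase, was higher by 1.61 (limma adjusted p = 6.3e-06), the sliding clamp Pcna by 1.34 (2.9e-05) and Mcm3 by 1.33 (2.7e-05). Their part in the nucleoporin differences was not tested.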

How the data were processed

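The authors sequenced strand-specific, rRNA-depleted libraries and mapped them to mm10 (TopHat2 2.0.8b). The deposited FPKM, 1 file for each library, come from Cufflinks and Cuffdiff 2.1.1 with UCSC gene models. Whether counting used strand is not given in the sources used here. In each table the heading over the values names another passage or none, so the library was taken from its sample record. Absolute depth is unknown. From the lowest values, 1 fragment was worth, on the log2 scale against passage 8, -0.35, -0.19 and -0.37 in MOE HIGH and -0.18 and -0.15 in the other MOE LOW libraries. Of 23141 entries, 577 shared 236 symbols, and the highest by mean was used. None of the genes described was among them. Positions were taken by symbol from RefSeq for GRCm38.p6. In the GENCODE annotation, which is not the set of gene models behind the FPKM, exons of 12 of the 40 genes overlap another gene, 6 of them on the same strand, by 14 to 428 bases.

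The test was limma 3.58.1 (R 4.3.3) with a variance trend and no block, applied to log2(FPKM + 1) of genes averaging 0.5 FPKM or more. The fit was tested on simulated data. Adjustment was by Benjamini-Hochberg over all genes tested, with a threshold of 0.05. The Kpna2 share was compared by an exact permutation test over libraries. Alternatives were 4 other scalings, a replicate block, centring by chromosome, leaving out each library, a minimum of 5 FPKM or none, pseudocounts of 0.1 and 0.01, a threshold of 0.01, and testing for more than a 1.5-fold change. The genes and lists were chosen with earlier results of these data known. Every gene is named, with all library values for those called with a log2 fold change of at least 0.5 in size, the most abundant of each role, and those listed at 0 in part of a group or over 2-fold apart within one. Companion lists name up to 3 called genes per direction, at 5 FPKM or more on average, and all Ran cycle genes. Ahctf1, Aaas, Nupl1, Nupl2 (below that minimum), Ranbp2, Seh1l, Tmem48, Tnpo1, Tpr and the cell type markers were named beyond that rule, after their values were seen.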

Additional observations from a re-analysis of the deposited data

How the results depend on the processing

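The direction of the 20 called genes held in every alternative that tested them, but only Nup160, Nup133 and Nup210 kept their call in each of those. The other 17 lost it in at least 1, in most cases only in the test against a 1.5-fold change. Nup210 was not tested at a minimum of 5 FPKM. In that test 3 nucleoporins were called higher and 0 receptors were called in either direction, with 6.05% of all genes called higher and 13.7% lower. Scaling to equal totals left 1 receptor called higher, Kpna2, and moved the median log2 fold change of all genes to -0.11, while quantile normalization moved it to 0.10. At an adjusted p of 0.01, 2 receptors were higher. Without a filter on low values 1 nucleoporin, Nup62cl, was called lower, and leaving out 1 library gave 0 to 1 lower, since without a MOE HIGH library Nup62cl passed the filter through its MOE LOW values. Leaving out 1 library gave 2 to 4 receptors higher and 2 to 7 lower, the 7 being without passage 113. Ipo9 turned to 0.027 when centred by chromosome. Leaving out 1 library, Kpna3 ran between -0.14 and 0.20 and Xpo7 between -0.20 and 0.36, and the difference in Kpna2 share between 12.6 and 15.75 percentage points. The cause of these shifts was not tested.

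Replicate numbers did not pair the libraries, since correlations of deviations between libraries of the same number were -0.02, -0.15 and 0.12. The fit with a replicate block called 15 nucleoporins higher and 0 lower, 4 receptors higher and 3 lower, adding Nup155, Xpo1 and Xpo4 and losing Ipo11, and left the Kpna2 difference at 13.7. No analysis could separate passage number from other changes in 1 line, and without counts the precision of values such as those of Nup210 in MOE LOW is unknown.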

Other observations

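The SUMO cycle, whose modification of Rangap1 docks it at the pore, was measured as a further neighbor of the pore. Of 12 genes 2 were higher, the subunits of the activating enzyme Uba2 (103.8 ± 3.048 FPKM in MOE HIGH and 78.9 ± 1.99 FPKM in MOE LOW, SD, n = 3 each) and Sae1 (150.2 ± 9.49 FPKM in MOE HIGH and 119.3 ± 4.67 FPKM in MOE LOW). Their log2 fold changes were 0.39 for Uba2 (limma adjusted p = 0.0063) and 0.33 for Sae1 (0.021). The ligase Pias3 was lower by -0.66 (adjusted p = 9.7e-04), and the median of the list was 0.12.

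The transport receptor Tnpo1 was listed at 0 FPKM at passage 103, between 28.8 FPKM at passage 90 and 51.9 FPKM at passage 113, while MOE LOW held 29.1, 30.4 and 32.4 FPKM. Its fitted difference rests on that 0 and is not described. Among the 37 tested genes taken by the symbol rule, which leaves out Tnpo1, the largest MOE HIGH value relative to the smallest was 2.30-fold for Xpo7 and 2.27-fold for Xpo4.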
